A study of Capra hircus with 2 samples.

Results

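miR-221 and miR-222 are a pair of small regulatory RNAs made from neighbouring hairpins, and both were measured in the mammary gland of lactating dairy goats. They were represented by 210 of the 659118 distinct small RNA sequences (tags) of the series, 121 tags for miR-221 and 89 for miR-222, and no tag held both. A tag was counted when it contained nt 2 to 17 of the mature 3p sequence, the arm of the hairpin that is usually the more abundant one. No file used here pairs a mature sequence with a name, so these 16 bases were read from the deposited tags. Among 5748 groups of tags, pairs were sought whose summed reads lay within 5% of the counts listed for both names in the study's supplement, in both libraries, and whose nt 2 to 8 were the same. A single pair of groups met both conditions, and it was again the single pair at 10%. The read totals thus helped to choose the members, so the levels and ratios below are a description, and their closeness to the listed counts is not evidence for the names. The 3′ ends of the tags did not enter the choice. The 5′ starts did, since each group was nt 2 to 17 of a tag. Among groups of an RNA with shifted starts, the one with the most reads was kept.

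The tissue came from Laoshan dairy goats (Capra hircus), 4 years old and in the third lactation, sampled by surgery on day 90 after kidding (peak lactation) or on day 210 (late lactation). Each stage had 1 small RNA library, made from the combined RNA of 5 animals, and the labels name no treatment or genetic change. Whether the same goats gave tissue at both stages is not clear from the methods. A pool hides how animals differ, so no test across animals was possible. Intervals are 95% intervals of the counts, and they leave out PCR duplication, so they reflect counting error alone. They compare a pair of libraries, not the stages.

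A miRNA of about this size is loaded into an Argonaute protein and pairs with messenger RNAs through its seed, nt 2 to 8, which lowers the output of those messages. miR-221 and miR-222 share their seed, and the messages of the cell cycle inhibitor CDKN1B, the receptor KIT and the oestrogen receptor ESR1 are known targets. Both miRNAs are well known from endothelial and smooth muscle cells and from basal-like breast cells, and they come from a common transcript on the X chromosome. The goat gene table of RefSeq (assembly ARS1.2) lists MIR221 and MIR222 on chromosome X with 0 other genes starting between them.

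The most abundant tag of each member is shown because the shared seed and the separate 3′ portions define the pair. Tags are written 5′ to 3′ with T for U, as deposited, and the capitals mark nt 2 to 8.
miR-221: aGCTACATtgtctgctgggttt
miR-222: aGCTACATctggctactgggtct
The leading tags were identical over nt 1 to 8. Of the 16 bases at nt 2 to 17, only the 7 of the seed were identical at the same position, so reads of one could not be counted for the other.

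The libraries held 19044002 clean reads at peak lactation and 7385833 at late lactation. A single read stood for 0.0525 reads per 1000000 clean reads (RPM) at peak lactation and for 0.135 RPM at late lactation, and a count of 0, read as up to 3 reads, allowed 0.158 and 0.406 RPM. Clean reads were 98.5% of the high-quality reads at peak lactation and 73.9% at late lactation, where 14.0% had been removed as 5′ adaptor contaminants. The mean length of all clean reads was 22.3 nt and 21.7 nt.

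miR-221 was the more abundant of the pair at both stages. It had 1636 reads at peak lactation, 85.9 RPM (95% exact Poisson interval 81.8 to 90.2), and 1075 reads at late lactation, 145.5 RPM (137.0 to 154.5). The level was 1.69-fold higher in the late library, a log2 ratio of 0.76 (exact binomial interval 0.65 to 0.87). miR-222 had 408 reads at peak lactation, 21.4 RPM (19.4 to 23.6), and 300 reads at late lactation, 40.6 RPM (36.2 to 45.5). Its level was 1.90-fold higher in the late library, a log2 ratio of 0.92 (0.70 to 1.14). For each miRNA the intervals of the libraries did not overlap, and at each stage the levels of the partners lay far apart. How many of all groups of tags also had intervals apart was not counted, so this is not read as a trait of the pair.

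**Figure D1:**
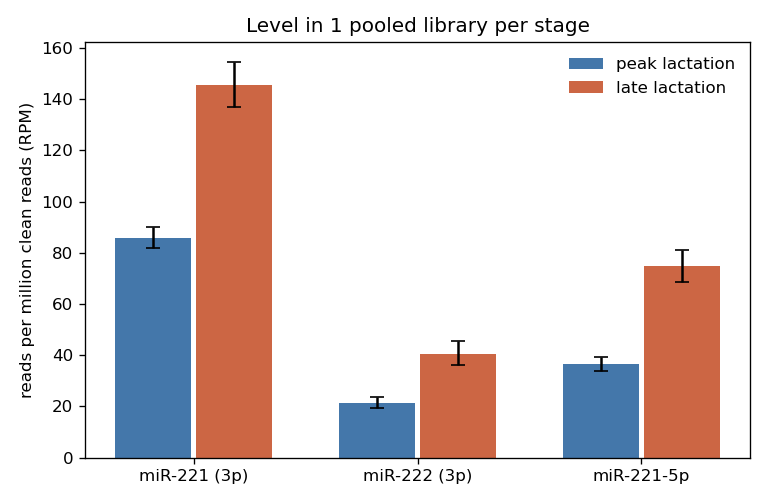
Level in RPM (y axis) of miR-221, miR-222 and the 5p arm of miR-221 in the peak (blue) and late (orange) library, with 95% exact Poisson intervals of the counts as error bars and 1 pooled library per bar. All 3 were higher at late lactation, miR-221 at 145.5 against 85.9 RPM, miR-222 at 40.6 against 21.4 RPM and miR-221-5p at 74.7 against 36.5 RPM.

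Neither member reached the 2-fold ratio that served as the call, although the interval of miR-222 included it. Tags of the whole series were grouped by their own nt 2 to 17 as a background. Of 11602 groups with at least 1 RPM in a library, 36.1% were at least 2-fold higher and 31.2% at least 2-fold lower at late lactation, and the median log2 ratio was 0.042. Grouped in this way, miR-221 had a log2 ratio of 0.79 and miR-222 one of 0.96, above those of 61.2% and 63.5% of the groups. Among the 2809 groups with at least 10 RPM in a library, a level that both members passed in each library, the balance was the other way, with 25.3% higher and 37.4% lower and a median of -0.56. There the ratios were above those of 71.9% and 74.2% of the groups. Groups with ratios above those of both members were common with either filter. With a log2 ratio within 0.1 of the member, 333 groups were found for miR-221 and 314 for miR-222. A likeness over 2 libraries does not set any of them apart, so none is singled out. miR-222 reached 2-fold when tags over 30 nt were left out (log2 ratio 1.06), when tags with a single read were left out (1.003) and when the 10 most abundant tags of either library were left out of the totals (1.01).

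**Figure D2:**
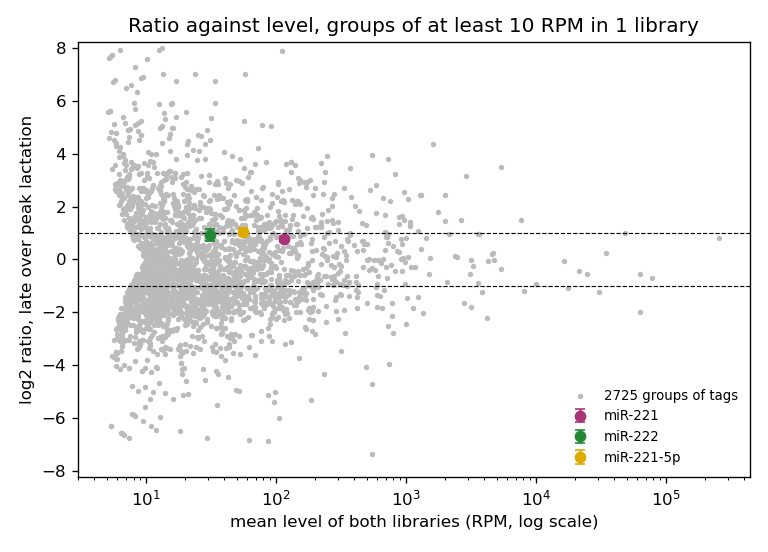
Log2 ratio of late over peak lactation (y axis) against the mean level of both libraries in RPM (x axis, log scale) for groups of tags with at least 10 RPM in a library (grey), with miR-221, miR-222 and miR-221-5p in colour and their 95% exact binomial intervals. Of 2809 groups, the 2725 within the plotted range are drawn, the dashed lines mark a 2-fold ratio, and the members lie at 0.76, 0.92 and 1.03, near the upper line.

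The ratio of the partners was close to 4 in both libraries. For each read of miR-222 there were 4.01 reads of miR-221 in the peak library (3.60 to 4.48, exact binomial) and 3.58 in the late library (3.15 to 4.09). The late ratio was 0.894 times the peak ratio, with an interval of 0.756 to 1.06, a log2 change of -0.16 (Wald interval -0.40 to 0.080). The interval included no change. The sign and size of this change depended on how tags were counted. With the most abundant tag of each alone, a choice made after seeing the data, the partner ratio was 14.0 at peak lactation and 4.38 at late lactation. The log2 change was then -1.68 (-2.32 to -1.03). That choice compares a single 3′ form of each, and the form of miR-222 had 28 reads at peak and 89 at late lactation. A change of the pair as a whole cannot be read from it. With tags that contain nt 1 to 20, the log2 change of the partner ratio was 0.046. When tags over 30 nt were left out, also a choice made after seeing the data, it was -0.26 (-0.51 to -0.018).

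Almost all reads with this seed belonged to the pair. Tags with the letters GCTACAT at nt 2 to 8 had 2014 reads at peak lactation (105.8 RPM) and 1377 reads at late lactation (186.4 RPM). miR-221 held 79.4% of them at peak lactation and 77.6% at late lactation. Tags that were neither miR-221 nor miR-222 held 1.09% (22 reads) and 0.871% (12 reads), and none of these tags had more than 2 reads. Another miRNA with this seed was thus not seen beyond these few reads.

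Among the counted tags, the 5′ end, which sets the seed, varied little. Groups were chosen by the starts of tags, so which start leads was part of the choice. A tag was counted only if it held the base at nt 2, so starts 2 or more bases later were left out by rule. The shares of starts are thus partly set by the counting, and how often later starts occurred was not tested. Of the miR-221 reads, 97.7% began at the same base at peak lactation and 99.4% at late lactation. For miR-222 these shares were 96.3% and 98.7%. Starts at another base shift the seed. Starts 1 base later made up 13 reads of miR-221 at peak lactation and 2 at late lactation, and 1 and 0 reads of miR-222. Starts 1 to 4 bases earlier made up 0 and 4 reads of miR-221 and 1 and 4 reads of miR-222. Starts more than 4 bases earlier made up 24 reads of miR-221 (1.47%) and 13 reads of miR-222 (3.19%) at peak lactation. At late lactation they made up 0 reads of either.

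The 3′ end varied widely, and its distribution differed between the libraries. Positions are counted from the common 5′ base, and tags over 30 nt are left out. miR-221 ended at position 22 or later in 60.6% of the peak reads (58.1% to 63.0%, exact binomial) and in 84.3% of the late reads (82.0% to 86.4%). The odds of such a longer form were 3.50-fold higher in the late library (Wald interval 2.89 to 4.24). In miR-222 the share was 54.4% at peak lactation (49.2% to 59.6%) and 72.3% at late lactation (66.8% to 77.3%), and the odds were 2.18-fold higher (1.58 to 3.03). The change was larger in miR-221, since the ratio of the odds ratios, miR-222 over miR-221, was 0.624 (0.427 to 0.911).

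On the RPM scale, the higher level of miR-221 at late lactation lay in its longer forms. Forms that ended at position 22 or later had 50.9 RPM at peak lactation and 122.3 RPM at late lactation, a log2 ratio of 1.26 (1.13 to 1.40). Forms that ended by position 21 had 33.1 and 22.7 RPM, a log2 ratio of -0.54 (-0.80 to -0.29). The short forms of miR-221 were thus lower in the library in which the miRNA as a whole was higher. For miR-222 the longer forms had 10.6 and 29.0 RPM, a log2 ratio of 1.45 (1.17 to 1.73). The short forms of miR-222 had 8.87 and 11.1 RPM, a log2 ratio of 0.32 (-0.075 to 0.71) whose interval included no difference.

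**Figure D3:**
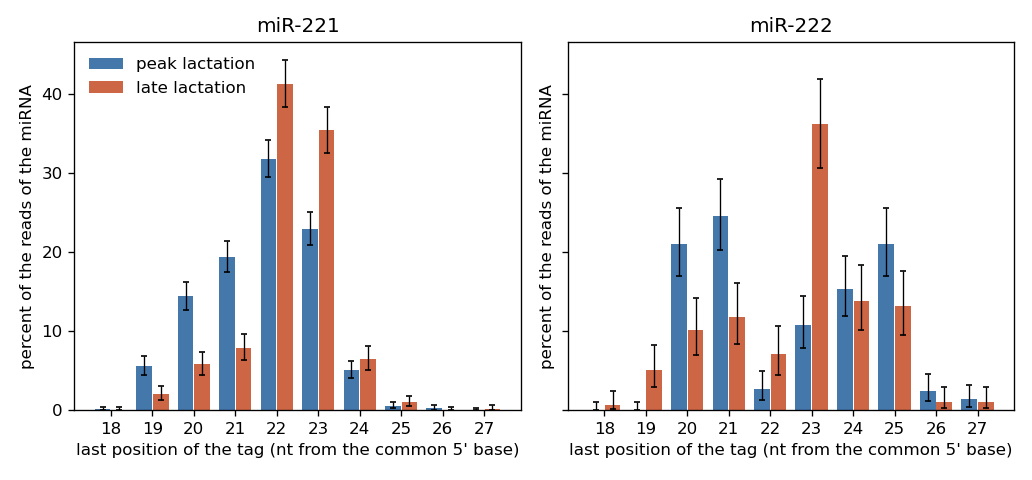
Share of the reads of miR-221 (left) and miR-222 (right) that end at each position (x axis, nt from the common 5′ base) in the peak (blue) and late (orange) library, with 95% exact binomial intervals as error bars. miR-221 moved from positions 20 and 21 (33.8% together at peak, 13.6% at late lactation) to 22 and 23 (54.8% and 76.7%), and miR-222 shows a single late peak at position 23 (36.1% against 10.8%).

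The leading forms of miR-221 are printed because they differ by single bases at the 3′ end and had opposite ratios.
miR-221, 20 nt: aGCTACATtgtctgctgggt
miR-221, 21 nt: aGCTACATtgtctgctgggtt
miR-221, 22 nt: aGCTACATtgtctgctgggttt
miR-221, 23 nt ending in C: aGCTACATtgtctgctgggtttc
miR-221, 23 nt ending in T: aGCTACATtgtctgctgggtttt
The form of 22 nt led in both libraries, with 393 reads (20.6 RPM) at peak lactation and 390 reads (52.8 RPM) at late lactation, a log2 ratio of 1.36. For the form of 21 nt, the 275 peak and 82 late reads stood for 14.4 and 11.1 RPM, a log2 ratio of -0.38 (-0.75 to -0.019). With 196 peak reads and 55 late reads, the form of 20 nt had a log2 ratio of -0.47 (-0.93 to -0.029). Loss of a single T from the 3′ end therefore separated forms with ratios of opposite sign. Reads of the 23 nt form that ends in C numbered 189 and 170, and its log2 ratio was 1.21 (0.91 to 1.52). The form of 23 nt that ends in T had 72 reads (3.78 RPM) and 112 reads (15.2 RPM), a log2 ratio of 2.00 (1.56 to 2.45), the highest among the named forms of miR-221. At 19 nt there were 87 peak and 20 late reads (log2 ratio -0.75, -1.53 to -0.041).

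The forms of miR-222 are printed for the same reason, since a single form of 23 nt accounted for much of its late reads.
miR-222, 20 nt: aGCTACATctggctactggg
miR-222, 21 nt ending in T: aGCTACATctggctactgggt
miR-222, 21 nt ending in A: aGCTACATctggctactggga
miR-222, 23 nt: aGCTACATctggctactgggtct
miR-222, 24 nt: aGCTACATctggctactgggtctc
miR-222, 25 nt: aGCTACATctggctactgggtctct
The form of 20 nt had 74 reads (3.89 RPM) at peak lactation, the most of any form, and 30 reads (4.06 RPM) at late lactation. The form of 23 nt had 28 reads (1.47 RPM) at peak lactation and 89 reads (12.1 RPM) at late lactation, a log2 ratio of 3.03 (2.41 to 3.70). It held 6.86% of the miR-222 reads at peak lactation (4.61% to 9.77%) and 29.7% at late lactation (24.6% to 35.2%). The form of 23 nt thus led miR-222 at late lactation. At peak lactation no form stood apart, since the share of the 20 nt form (18.1%, 14.5% to 22.2%) overlapped that of the 25 nt form (15.7%, 12.3% to 19.6%). At 25 nt there were 64 peak and 21 late reads (log2 ratio -0.24, -1.03 to 0.49), and at 24 nt 38 and 31 reads (log2 ratio 1.07, 0.34 to 1.80). The 21 nt form that ends in T, with 49 and 30 reads, had a log2 ratio of 0.66 (-0.048 to 1.34), and the one that ends in A, with 41 and 5 reads, -1.67 (-3.37 to -0.33). Ends by position 19 had 0 of 371 peak reads and 17 of 296 late reads, and ends at 24 or later held 41.0% and 29.1%. The mean end of miR-222 was 22.6 at both stages (late minus peak 0.021 nt, Wald interval -0.28 to 0.32).

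Bases outside the most frequent 3′ extension were compared as well. The most frequent next base was followed in both libraries together, and reads that left this line only with their last base were counted by that base. In miR-221 such a last A held 6.68% of the reads at peak lactation (5.50% to 8.02%) and 9.73% at late lactation (8.02% to 11.7%), and such a last T held 4.54% (3.57% to 5.68%) and 10.5% (8.71% to 12.5%). In miR-222 a last A held 15.7% (12.1% to 19.8%) and 7.43% (4.72% to 11.04%), and a last T held 3.24% and 4.39%. The share of a last A was thus lower late in miR-222 and had overlapping intervals in miR-221. The last T reads of miR-221 were all of its 23 nt form that ends in T, given above. Of the last A reads of miR-222, 41 of 58 at peak and 5 of 22 at late lactation were of its 21 nt form that ends in A. These shares were not counted over other groups of tags, so they are not read as a trait of the pair. Terminal A and T are the bases that enzymes are known to add to mature miRNAs, but without the hairpin sequence added and encoded bases cannot be told apart here.

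Across single tags, 15 of the 121 tags of miR-221 had at least 1 RPM in a library, and 7 of these were at least 2-fold higher and 2 at least 2-fold lower at late lactation. For miR-222, 11 of 89 tags had 1 RPM, with 7 higher and 1 lower. Over all 26175 such tags of the series, 30.7% were higher and 40.1% lower. A tag that passes 1 RPM only where it is high has to differ, so these counts describe the tags and support no trend. By length, none of the 4 tags of miR-221 of at most 21 nt were 2-fold apart, while of the 11 tags of 22 to 30 nt, 7 were higher and 2 lower. For miR-222, 1 of the 4 tags of at most 21 nt was higher and 1 lower, and of its 7 tags in the longer range 6 were higher and none was lower. Shares over all tags of the series were not counted by length, so these classes have no background beside them.

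The longer ends of miR-221 were set against those of the other groups of tags. Among 927 groups with at least 200 reads in both libraries, the mean length was shorter in the late library in most, with a median change of -0.19 nt (quartiles -0.80 and 0.030) and 29.4% of the groups longer. miR-221 was 0.56 nt longer, a change that 47 groups (5.07%) reached or passed. miR-222 was 0.022 nt longer, which 26.4% of the groups reached or passed. The groups include overlapping forms of a single RNA, so they are not independent and no test was made. The lengthening of miR-221 thus ran against the direction of most groups. It was not particular to miR-221, since the mean 3′ end was 0.69 nt later in miR-141 and 0.48 nt later in miR-126-5p, against 0.56 nt in miR-221. The mean end was also later in miR-200a (0.26 nt) and in miR-126-3p (0.47 nt). The value of miR-126-3p rests on 17934 of its 242484 peak reads and 6949 of its 45394 late reads. In miR-200b and miR-200c the mean end changed by -0.14 and -0.061 nt.

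**Figure D4:**
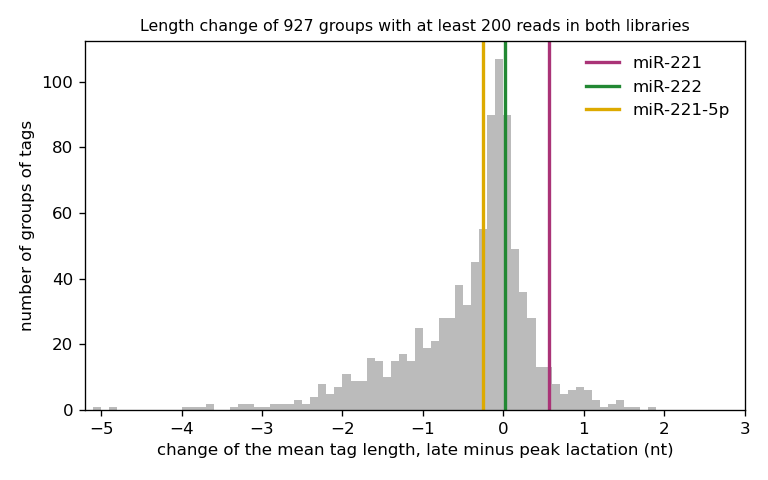
Change of the mean tag length from peak to late lactation in nt (x axis) for 927 groups of tags that reach 200 reads in each library (grey, number of groups on the y axis), with the members as coloured lines. miR-221 lies at 0.56 nt in the upper tail, miR-222 at 0.022 nt and miR-221-5p at -0.25 nt, close to the median of -0.19 nt.

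The 5p arm of miR-221 was located by its listed counts, again within 5%, and by at least 8 bases complementary to the 3p group, conditions that 1 of 4 candidate groups met. The leading tags of both arms are shown with capitals on 9 complementary bases. A run of at least 8 was a condition of the choice, so the pairing is not separate evidence for the name.
miR-221-5p: acctggcatACAATGTAGatttctgt
miR-221: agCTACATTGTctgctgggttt
The run spans positions 10 to 18 of the 5p tag and 3 to 11 of the 3p tag. miR-221-5p had 695 reads (36.5 RPM, exact Poisson interval 33.8 to 39.3) at peak lactation and 552 reads (74.7 RPM, 68.6 to 81.2) at late lactation. Its log2 ratio was 1.03 (0.87 to 1.20), at least 2-fold, whereas the 3p arm stayed below 2-fold. The 3p arm held 70.2% of the reads of both arms at peak lactation (68.3% to 72.0%) and 66.1% at late lactation (63.7% to 68.4%). The 3p to 5p ratio changed by -0.27 on the log2 scale (Wald interval -0.47 to -0.078), beyond the counting error of this pair of libraries. With 3p tags that contain nt 1 to 20, the log2 ratio of the 3p arm was 0.92 (0.80 to 1.03), nearer to that of the 5p arm. The change of the arm ratio was not computed for such tags, and the read totals of both arms had entered their choice. The 5p arm of miR-222 was not located.

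The 3′ ends of the 5p arm did not shift as those of the 3p arm did. The form of 26 nt led in both libraries, with 259 and 219 reads. Ends at position 22 or later had 80.5% of the reads at peak lactation and 75.2% at late lactation, so the odds of a longer form were 0.735 times as high (0.560 to 0.963). The form of 19 nt had 16 reads at peak lactation and 51 at late lactation, a log2 ratio of 3.04 (2.21 to 3.95).

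Tags over 30 nt that contain a member were found only in the peak library. Tags over 30 nt held 35 of the 1636 miR-221 reads (2.14%, 1.49% to 2.96%) and 36 of the 408 miR-222 reads (8.82%, 6.26% to 12.0%) at peak lactation. At late lactation 0 of 1075 and 0 of 300 reads were over 30 nt, which allows shares of up to 0.279% and 1%. Of these long tags, 12 of 19 for miR-221 and 23 of 27 for miR-222 also held 16 bases (nt 2 to 17) of another tag with at least 1000 reads at peak lactation. This share was not counted over all tags above 30 nt, so it is not read as a trait of the pair. In all clean reads, tags over 30 nt made up 0.331% at peak lactation and 0.135% at late lactation.

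miRNAs known from the cell types that could contribute were read in the same way where a pair could be located, which was possible for 6 of 23 listed names. In bulk tissue, fewer cells of a type and less RNA per cell cannot be told apart. Both arms of the endothelial miR-126 were located. miR-126-3p had 12733 RPM at peak lactation and 6146 RPM at late lactation, a log2 ratio of -1.05, and miR-126-5p had 641 and 1560 RPM, a log2 ratio of 1.28. Of the 8 epithelial names, 4 were located, with a summed level of 31228 and 20871 RPM and a median log2 ratio of -0.14. 1 of these 4, miR-200c, was at least 2-fold lower (log2 ratio -1.05), and miR-141 had a log2 ratio of 0.97. Among all groups with at least 10 RPM in a library, 37.4% were at least 2-fold lower and 25.3% at least 2-fold higher. The calls on these lists are thus not read as a trait of the cell types. None of the 5 stromal and smooth muscle, 4 erythroid and 4 leukocyte names was located. The part of these cell types in the levels of miR-221 and miR-222 was not tested.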

How the data were processed

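Small RNA of 18 to 30 nt from 1 pool of 5 goats per stage was sequenced on an Illumina 1G Genome Analyzer. The deposited reads had already passed the quality, adaptor and length filters of the study, which kept inserts of at least 18 nt. The authors deposited raw counts of reads per distinct tag and per filtering step, with no software version named. No tag was mapped or named in the files.

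Members were located as described in the report. The members, lists and tests were chosen with earlier results of these data known. Counts were divided by the clean reads of the library. Shares and ratios carry exact binomial intervals, levels exact Poisson intervals, and odds ratios Wald intervals, all at 95%. By rule, the text names the members, their 5p arms, the 5 most abundant tags of each in either library and at most 2 miRNAs per cell type list. In addition, miR-200a and miR-200b were named after their values were seen. RefSeq miRNAs with the same seed or the nearest ratios were also to be named. A table of RefSeq mature and hairpin sequences had been planned for and was not at hand, so those were not named, the background used groups of tags, and a comparison with hairpins was left out. The RefSeq gene table served only for the neighbourhood of MIR221 and MIR222, of which 2 of 2 matched. The alternatives were TMM factors (edgeR 4.0.16), median-ratio factors (DESeq2 1.42.0), other totals, other matches, filters, a pseudocount of 1 read, a thinned peak library and the Audic-Claverie P of the methods. The ratio calculation was tested on simulated counts of 11534 groups with counting error alone. Of 200 groups given a 3-fold change up or down, 180 were called at 2-fold. A further 882 groups given no change were also called, so calls at 1 RPM include counting noise. The interval held the true ratio in 96.8% of the groups. R 4.3.3, Python 3.11.15, numpy 2.4.6, scipy 1.17.1 and matplotlib 3.10.9 were used.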

Additional observations from a re-analysis of the deposited data

How the results depend on the processing

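No paired analysis was possible because each stage had 1 library, and no library could be left out. No direction of the log2 ratios of miR-221 and miR-222 changed under any scaling, match or filter that was run. Apart from the most abundant tag alone, the ratio lay between 0.74 and 0.92 for miR-221 and between 0.87 and 1.06 for miR-222. Of 69 alternative values, 54 stayed within the interval of the reported value or within 1.5 times a count. With tags that contain nt 1 to 20, the log2 ratio of miR-221 was 0.92 and the partner ratio at peak lactation was 3.57. With the most abundant tag alone, a choice made after seeing the data, the log2 ratios were 1.36 and 3.03, the partner ratios 14.0 and 4.38, and the log2 change of the partner ratio -1.68. The most abundant tag is a single 3′ form, which leaves out the others. With tags of any length, also chosen after seeing the data, the mean 3′ end changed by 0.40 nt in miR-221 and by -1.14 nt in miR-222, since the long tags of the peak library then count. Thinned to the late depth, peak lactation held 63.1 distinct tags of miR-221 instead of 102, against 60 at late lactation, and 41.1 of miR-222 instead of 72, against 36. Groups at least 2-fold higher and lower numbered 141519 and 249575 without a filter and 710 and 1050 at 10 RPM, against 4193 and 3622. The share of higher among called groups was then 36.2% and 40.3% instead of 53.7%. Scaling to matched RefSeq miRNAs, the RefSeq mature tag alone and a match to the hairpin were not run. Depth limits miR-222 most, since many of its forms rest on under 50 reads.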

Other observations

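Distinct tags that rested on a single read numbered 52 of 102 for miR-221 and 44 of 72 for miR-222 at peak lactation, and 27 of 60 and 17 of 36 at late lactation. The 41 tags of miR-221 found in both libraries held 92.8% of its reads at peak lactation and 97.5% at late lactation, and the 19 shared tags of miR-222 held 81.4% and 88.7%. Reads with 1 mismatch in nt 2 to 17 added 18 reads to miR-221 at peak lactation (1.09%) and 9 at late lactation (0.830%), and 9 reads (2.16%) and 0 reads to miR-222.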
